A study of Homo sapiens with 6 samples.

Results

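The genes described here are 38 genes of epithelial identity and of epithelial-mesenchymal transition (EMT), out of 20308 genes in the tables. They were chosen by symbol, with earlier results of these data known. They comprise 4 genes listed under the adherens junction (CDH1, CTNNA1, CTNND1 and EPCAM), 9 of the tight junction and 7 of the desmosome. The others are 3 luminal keratins, 4 basal cell markers, 3 epithelial regulators and 8 mesenchymal regulators and markers. All 38 were measured by RNA sequencing in LNCaP-AI, a prostate cancer cell line maintained under androgen deprivation as a model of castration-resistant prostate cancer (CRPC). The shMETTL1 group (3 libraries) carried a stable lentiviral hairpin against METTL1, which encodes an RNA methyltransferase that makes N7-methylguanosine. The shscramble group (3 libraries) carried a scrambled hairpin, and both groups were LNCaP-AI cells under the same androgen deprivation label. Nothing in the labels says whether the lines were clones or pools, or whether replicates were grown separately, so p-values measure only the spread between these libraries. The comparison asks whether junction, keratin and EMT genes differed once METTL1 was silenced.

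Epithelial cells hold to each other through 3 kinds of junction. In adherens junctions the cadherin CDH1 is tied by catenins to actin, in tight junctions claudins and occludin seal the space between cells, and in desmosomes the cadherins of the desmoglein and desmocollin families are tied by plakophilins, plakoglobin and desmoplakin to keratin filaments. Luminal cells of the prostate make the keratins KRT8 and KRT18, and basal cells make KRT5 and KRT14. In EMT, repressors of the SNAI, ZEB and TWIST families lower CDH1 and other junction genes, and cells gain CDH2 and vimentin.

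The line expressed genes of luminal prostate cells. The secreted protease genes KLK3 and KLK2 averaged 806 ± 68.0 and 94.9 ± 10.99 FPKM in shMETTL1 libraries, against 1189 ± 30.2 and 201 ± 5.02 FPKM in shscramble libraries (SD, n = 3 each), where FPKM is the number of sequenced fragments corrected for transcript length and library depth. KLK3, KLK2 and TMPRSS2, a membrane protease gene of luminal cells, fell by edgeR (log2 fold changes -0.64, -1.23 and -0.64; adjusted p = 0.00319, 1.93e-05 and 0.0305). Total estimated counts were 3389897 to 3604835 per library. METTL1 averaged 9.02 ± 1.30 FPKM in shMETTL1 and 17.8 ± 3.62 FPKM in shscramble (SD, n = 3 each), lower in every shMETTL1 library, with an exact two-sided permutation p of 0.1, the smallest that 3 against 3 allows. By edgeR on the estimated counts METTL1 fell (log2 fold change -1.36, adjusted p = 0.0368), and by limma on FPKM it was not called (log2 fold change -0.93, adjusted p = 0.127). Some markers of other cell types were listed at 0 in all 6 libraries. They were CHGA, CHGB and INSM1 (3 of 6 neuroendocrine markers) and DCN, LUM and PDGFRA (3 of 8 fibroblast markers). CDH5 and KDR (2 of 4 endothelial markers) and PTPRC, CD3E and MS4A1 (3 of 6 leukocyte markers) were also at 0. Others were detected. ENO2 averaged 19.4 FPKM in shMETTL1 and 23.1 FPKM in shscramble, most of the neuroendocrine sum. COL1A1 averaged 8.14 and 10.1 FPKM, most of the fibroblast sum. The summed neuroendocrine, fibroblast and endothelial markers overlapped between the groups, at 17.1 to 23.3, 5.38 to 11.2 and 0.0713 to 0.299 FPKM in shMETTL1 libraries and 21.3 to 27.0, 7.94 to 13.7 and 0.0489 to 0.219 FPKM in shscramble libraries. The leukocyte sum did not (6.43 to 8.11 FPKM in shMETTL1 and 11.8 to 16.8 FPKM in shscramble), and nearly all of it was CD68, a lysosomal protein gene that is also expressed outside leukocytes. The part of these differences in the results on junction genes was not tested.

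Under METTL1 knockdown the desmosomal genes DSP and DSG2 and the intermediate filament gene NES fell, and the claudin gene CLDN7 and the splicing regulator gene ESRP1 rose, each by the edgeR quasi-likelihood test on estimated counts. These were 5 of the 30 genes of the set that edgeR tested, where 6.33% of all 11248 tested genes were called at an adjusted p under 0.05 (2.68% higher and 3.65% lower). Before adjustment, edgeR had 11 of the 30 at a p under 0.05, 6 higher and 5 lower, against 22.8% of all tested genes. DESeq2 called 6, the same 5 and KRT18, against 6.88% of all tested genes. The changes by edgeR were moderate, between 1.32-fold for DSG2 and 1.63-fold for NES. The limma test on log2(FPKM + 0.5), with a mean FPKM of at least 0.5 required, called 0 of the 33 tested genes of the set at an adjusted p under 0.05, where it called 0.123% of all 12156. At an unadjusted p under 0.05 limma had 10 of the 33, 6 of them higher and 4 lower, against 14.2% of all tested genes (7.37% higher and 6.8% lower). The FPKM values of the groups did not overlap for 6 genes that were higher in shMETTL1 and 8 that were lower, against 10.5% and 9.33% of all tested genes. In bulk RNA, fewer cells of a kind and less RNA per cell cannot be told apart. CDH1, the defining gene of the epithelial state, stayed the most abundant of the 38 genes, and CDH2, its mesenchymal counterpart, was listed at 0 in every library.

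**Figure D1:**
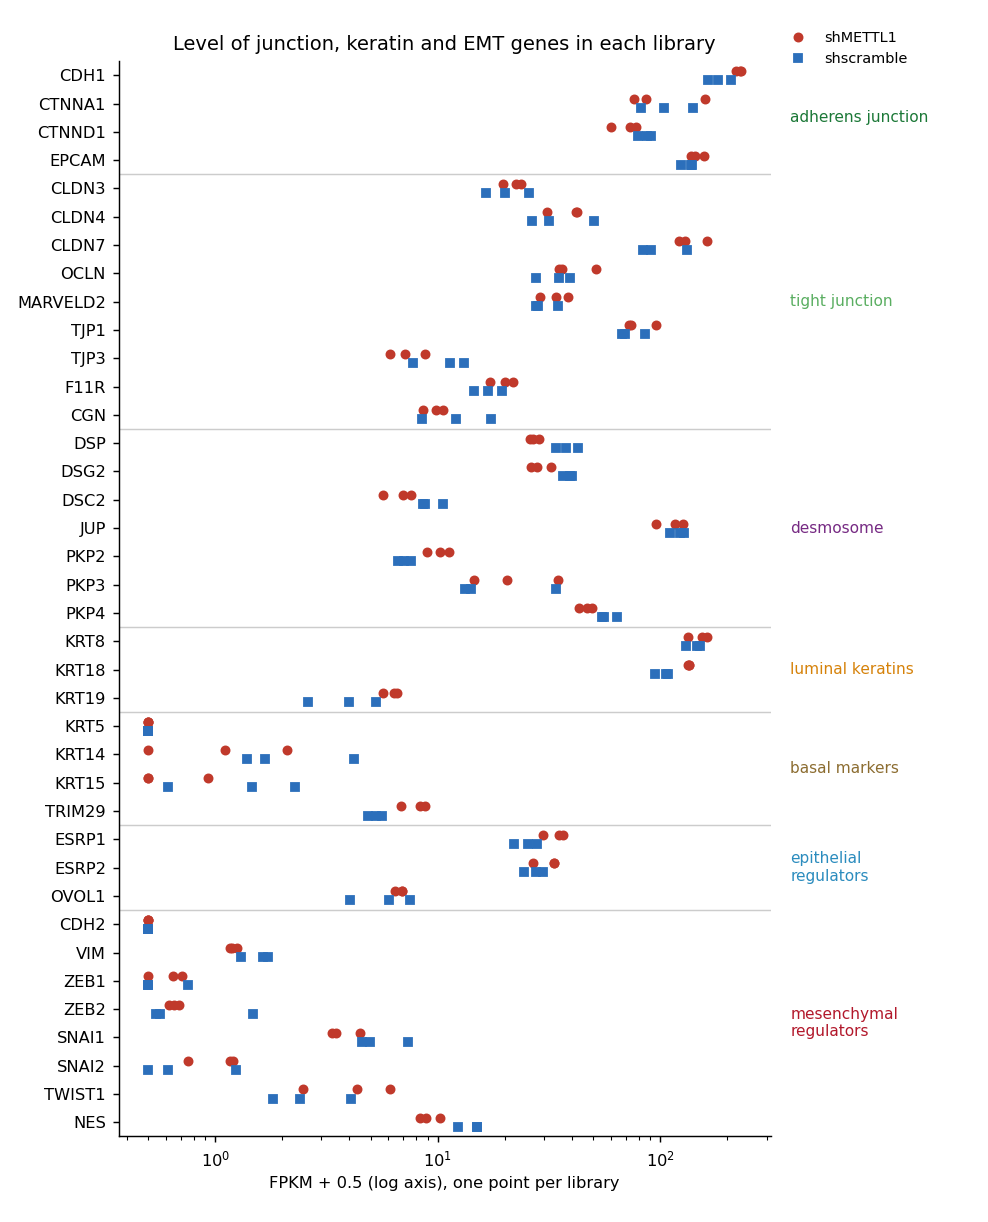
FPKM + 0.5 of each of the 38 genes on a log axis, one point per library, with 3 shMETTL1 libraries (circles) above 3 shscramble libraries (squares) in each row and genes grouped by role. CDH1, KRT8 and KRT18 lie between 94.3 and 230 FPKM, and no basal or mesenchymal gene exceeds the 14.5 FPKM of NES.

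In the desmosome, edgeR called 2 of 7 genes lower and 0 higher. Desmoplakin, encoded by DSP (ENSG00000096696; GRCh38 chromosome 6, 7541575 to 7586717, plus strand), links the desmosomal plaque to keratin filaments. DSP had 26.2, 27.96 and 25.3 FPKM in shMETTL1 replicates 1, 2 and 3, against 37.3, 33.4 and 42.2 FPKM in shscramble replicates 1, 2 and 3. Every shMETTL1 library was below every shscramble library. The means were 26.5 ± 1.34 FPKM in shMETTL1 and 37.6 ± 4.36 FPKM in shscramble (SD, n = 3 each). By edgeR DSP fell (log2 fold change -0.54, adjusted p = 0.0109, and 0.000138 to 0.0777 over the alternatives), and limma gave a log2 fold change of -0.49 (standard error 0.16, adjusted p = 0.224).

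DSG2 (ENSG00000046604; GRCh38 chromosome 18, 31498043 to 31549008, plus strand) encodes desmoglein 2, the desmoglein of simple epithelia. It had 31.6, 27.5 and 25.6 FPKM in the 3 shMETTL1 libraries, against 36.1, 38.9 and 39.6 FPKM in the 3 shscramble libraries. The groups did not overlap, and DSG2 fell by edgeR (log2 fold change -0.40, adjusted p = 0.0442, and 0.012 to 0.163 over the alternatives). Limma gave a log2 fold change of -0.43 (standard error 0.15, adjusted p = 0.266). The exons of DSG2 overlap those of the antisense gene DSG2-AS1, and whether counting used strand is not stated, so their reads cannot be told apart. Exons of METTL1 and of other genes of the set, CDH1, CTNNA1, CTNND1, PKP4 and ESRP2 among them, also overlap those of other genes. The same limit holds for these. Its partner cadherin, desmocollin 2, is encoded by DSC2, a gene of the same cadherin cluster (ENSG00000134755; GRCh38 chromosome 18, 31058840 to 31102522, minus strand), which had 7.05, 6.45 and 5.16 FPKM in shMETTL1 and 8.29, 10.003 and 8.09 FPKM in shscramble. The DSC2 groups did not overlap either, but edgeR placed it just outside the threshold (log2 fold change -0.53, adjusted p = 0.0562, and 0.0378 to 0.197 over the alternatives). Summed over DSG2 and DSC2, the desmosomal cadherins came to 38.7, 34.0 and 30.7 FPKM in shMETTL1 and 44.4, 48.9 and 47.6 FPKM in shscramble.

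The remaining 4 desmosomal genes did not pass either test. PKP4, a plakophilin relative also found at adherens junctions, had 48.7, 42.7 and 46.1 FPKM in shMETTL1 and 63.5, 55.5 and 54.3 FPKM in shscramble. Its groups did not overlap, with a log2 fold change of -0.33 by limma (adjusted p = 0.347) and -0.26 by edgeR (adjusted p = 0.214). PKP2, which brings desmoplakin to the plaque, had 10.7, 8.45 and 9.75 FPKM in shMETTL1 and 6.11, 7.06 and 6.53 FPKM in shscramble, a log2 fold change of 0.52 by limma (adjusted p = 0.326). The estimated counts of PKP2 did not show that difference, with 97.9, 104 and 109 in shMETTL1 and 110, 106 and 76.3 in shscramble (log2 fold change 0.04 by edgeR). JUP, which encodes plakoglobin of desmosomes and adherens junctions, had 95.2, 116 and 126 FPKM in shMETTL1 and 128, 110 and 122 FPKM in shscramble, with overlapping groups. PKP3 ranged from 14.1 to 34.0 FPKM in shMETTL1 and from 12.8 to 33.5 FPKM in shscramble.

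Repressors of the SNAI and ZEB families bind the E-box CAGGTG, which reads CACCTG on the other strand. Promoter sequence from RefSeq (GRCh38.p14), spanning 250 bases before to 50 bases after the annotated start, was found for 21 of the 38 genes, and 8 of the 21 (38.1%) held CAGGTG on either strand, against 20.6% of all 27305 promoters in the table. Of the desmosomal genes searched, DSP, DSG2 and DSC2 held it, DSP and DSG2 at 2 positions each, and JUP and PKP4 did not. The matches in DSP, DSG2 and DSC2 are shown because DSP and DSG2 were called lower. Each is printed 5′ to 3′ on the strand of its gene with the E-box in capitals.
DSP, chr6:7541481-7541510, plus strand: gggcggcgggcgCAGGTGgggaggggcggc
DSP, chr6:7541574-7541603, plus strand: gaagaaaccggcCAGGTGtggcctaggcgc
DSG2, chr18:31497933-31497962, plus strand: acgtcacggtccCAGGTGcgagtgcgagcg
DSG2, chr18:31498049-31498078, plus strand: tcgcggcggccaCACCTGgagccgcgcctt
DSC2, chr18:31102560-31102589, minus strand: tcaactttctgtCAGGTGggcctcaggcag
The tight junction genes OCLN and TJP1, neither called by limma or edgeR, also held a match.
OCLN, chr5:69492502-69492531, plus strand: ccatccgagtttCAGGTGaattggtcaccg
TJP1, chr15:29969120-29969149, minus strand: gcggccggcgcgCAGGTGgcccggcctcgc
The other matches were in CLDN3, KRT5 and ZEB1. Among the 21 genes searched, CLDN7, NES, JUP and PKP4 had none in this window. CDH1, EPCAM, ESRP1, KRT18, SNAI1, PKP2 and PKP3 were among the genes without a promoter sequence, so they were not searched. The RefSeq starts of DSP, DSG2 and DSC2 differ from the GENCODE gene ends given above. By the GENCODE positions, the DSP match at 7541574 to 7541603 and the DSG2 match at 31498049 to 31498078 lie inside the gene. A match gives only the letters present and not binding, which was not measured. Any part of the E-box in the changes was not tested.

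**Figure D2:**
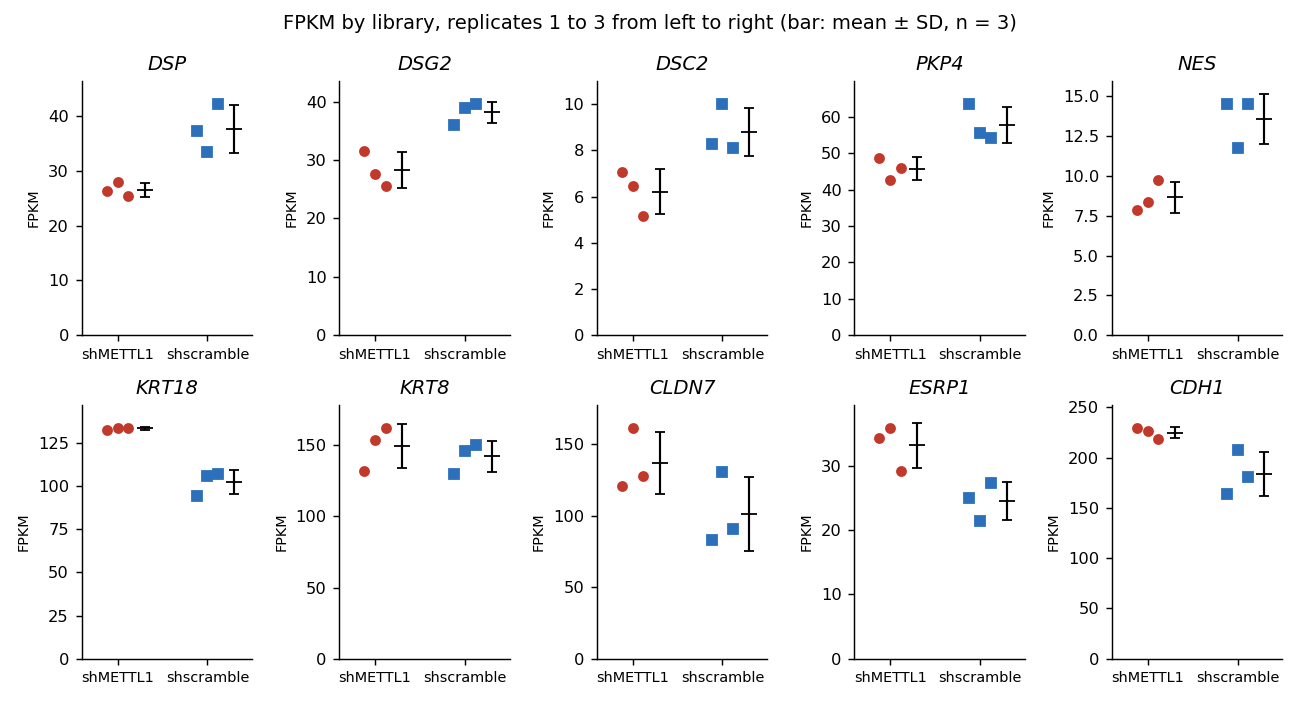
FPKM in each library for 10 genes (shMETTL1 circles left, shscramble squares right, replicates 1 to 3 from left to right), with the mean and SD of 3 libraries beside the points and axes starting at 0. The groups are separate for DSP, DSG2, DSC2, PKP4, NES, KRT18, ESRP1 and CDH1, and overlap for KRT8 and CLDN7.

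The luminal keratins did not follow the desmosomal genes. KRT18 (ENSG00000111057; GRCh38 chromosome 12, 52948871 to 52952901, plus strand), the acidic keratin of simple epithelia, had 132, 134 and 134 FPKM in shMETTL1, against 94.3, 105 and 107 FPKM in shscramble. The groups did not overlap, and the shMETTL1 libraries differed from each other by less than the shscramble libraries did. The log2 fold change was 0.38 by limma (standard error 0.12, adjusted p = 0.237) and 0.35 by edgeR (adjusted p = 0.0611), which missed the threshold, while DESeq2 called it (adjusted p = 0.0496). KRT8 (ENSG00000170421), the basic keratin that pairs with KRT18 in filaments, had 132, 154 and 162 FPKM in shMETTL1 and 130, 146 and 150 FPKM in shscramble. Its groups overlapped, with a log2 fold change of 0.07 by limma (adjusted p = 0.853) and 0.16 by edgeR (adjusted p = 0.442). The FPKM ratio of KRT18 to KRT8 was 1.00, 0.869 and 0.824 in shMETTL1 and 0.727, 0.722 and 0.712 in shscramble, without overlap. Exons of KRT8 and KRT18 overlap on opposite strands and both genes have processed copies elsewhere in the genome, so reads shared between them leave these values uncertain. KRT19, a keratin of simple epithelia that lacks the usual tail, had 5.84, 5.18 and 6.04 FPKM in shMETTL1 and 3.51, 4.77 and 2.11 FPKM in shscramble. The KRT19 difference was the largest of the 3 keratins by either model (log2 fold change 0.70 by limma and 0.95 by edgeR) and did not pass (adjusted p = 0.351 and 0.178).

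Of 9 tight junction genes, edgeR called 1, CLDN7, higher and 0 lower. CLDN7 (ENSG00000181885; GRCh38 chromosome 17, 7259903 to 7263983, minus strand), a claudin also found along the lateral membrane, had 121, 161 and 128 FPKM in shMETTL1, against 82.8, 131 and 90.3 FPKM in shscramble. By FPKM the groups overlapped, because shscramble replicate 2 was above the other shscramble libraries and above 2 of the 3 shMETTL1 libraries. The estimated counts of CLDN7 did not overlap, with 530, 574 and 478 in shMETTL1 and 330, 465 and 303 in shscramble. By edgeR CLDN7 rose (log2 fold change 0.48, adjusted p = 0.0466, and 0.00126 to 0.226 over the alternatives), and by limma its log2 fold change was 0.45 (standard error 0.20, adjusted p = 0.349). Its exons overlap those of ELP5 on the opposite strand and of the unnamed gene AC003688.1 on the same strand, so part of its reads cannot be told apart from theirs.

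The other tight junction genes did not pass. Occludin, the tetraspan protein of the seal encoded by OCLN, had 50.9, 35.4 and 34.6 FPKM in shMETTL1 and 34.4, 27.0 and 38.6 FPKM in shscramble, with a log2 fold change of 0.26 by limma (adjusted p = 0.589) and 0.44 by edgeR (adjusted p = 0.172). TJP3, a scaffold of the ZO family, had 8.21, 5.61 and 6.60 FPKM in shMETTL1 and 12.6, 10.9 and 7.24 FPKM in shscramble, with overlapping groups and a log2 fold change of -0.54 by limma (adjusted p = 0.395). CGN, which encodes cingulin, a link from the tight junction to actomyosin, had 8.10, 10.02 and 9.32 FPKM in shMETTL1 and 16.8, 7.999 and 11.6 FPKM in shscramble. Its direction depended on the readout, with a log2 fold change of -0.33 by limma and 0.05 by edgeR. CLDN3 and CLDN4 (claudins), MARVELD2 (tricellulin), TJP1 (ZO-1) and F11R (the adhesion molecule JAM-A) had overlapping FPKM in the groups and log2 fold changes between 0.10 for CLDN3 and 0.22 for F11R by limma.

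In the adherens junction, edgeR called 0 of 4 genes, with 1 of 4 at an unadjusted p under 0.05, and limma called 0 of 4, with 0 at an unadjusted p under 0.05. CDH1 (ENSG00000039068; GRCh38 chromosome 16, 68737225 to 68835548, plus strand), which encodes E-cadherin, had 230, 226 and 218 FPKM in shMETTL1, against 164, 207 and 181 FPKM in shscramble. The means were 225 ± 5.75 FPKM in shMETTL1 and 184 ± 21.8 FPKM in shscramble (SD, n = 3 each), and the groups did not overlap. Its log2 fold change was 0.29 by limma (standard error 0.13, adjusted p = 0.355) and 0.23 by edgeR (adjusted p = 0.202, and 0.0553 to 0.448 over the alternatives). EPCAM, an epithelial adhesion molecule that is neither a cadherin nor a catenin, was counted among these 4. EPCAM had 142, 137 and 157 FPKM in shMETTL1 and 138, 137 and 123 FPKM in shscramble. Its log2 fold change was 0.13 by limma and -0.18 by edgeR, and neither differed beyond the spread of the libraries (adjusted p = 0.671 and 0.467). CTNND1, which encodes p120 catenin, a stabiliser of cadherins at the membrane, had 72.6, 77.4 and 59.3 FPKM in shMETTL1 and 79.0, 86.2 and 90.0 FPKM in shscramble. These groups did not overlap by FPKM, with a log2 fold change of -0.29 by limma (adjusted p = 0.405). CTNNA1, which encodes alpha-catenin, the link to actin, had 75.9, 85.5 and 159 FPKM in shMETTL1 and 139, 81.3 and 104 FPKM in shscramble, with overlap. Its estimated counts of 900, 906 and 885 in shMETTL1 and 775, 790 and 867 in shscramble did not overlap and varied less, with a log2 fold change of 0.09 by edgeR (adjusted p = 0.657).

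**Figure D3:**
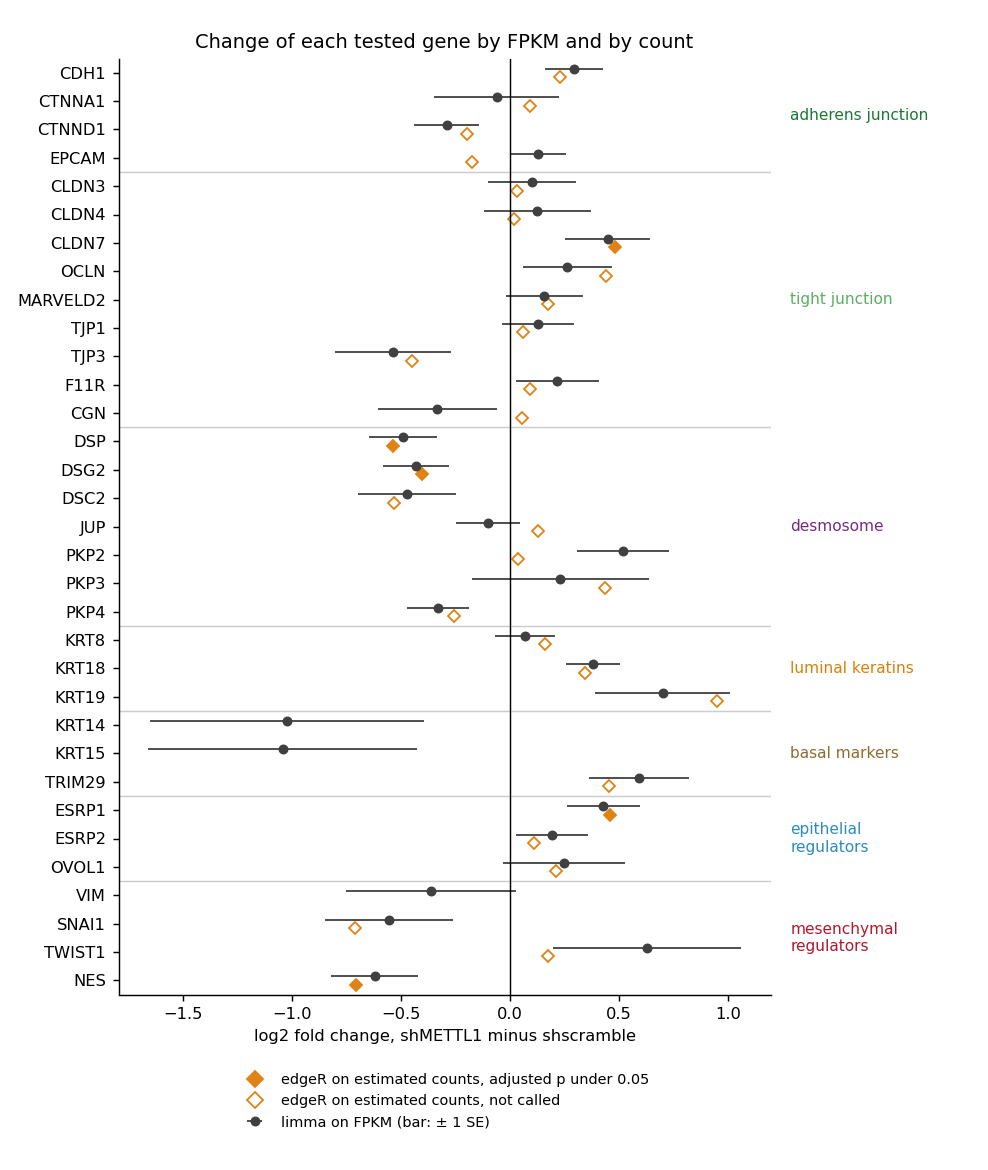
Log2 fold change (shMETTL1 minus shscramble) of each tested gene, by limma on log2(FPKM + 0.5) with bars of 1 standard error (circles), beside the edgeR value from estimated counts (diamonds, filled where the adjusted p is under 0.05). Filled diamonds mark CLDN7 and ESRP1 above 0 and DSP, DSG2 and NES below 0, and 26 of the 30 genes tested by both have the same sign.

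The 2 deposited readouts differed in direction for CTNNA1, EPCAM, CGN and JUP, and had the same sign for 26 of the 30 genes tested by both. The FPKM column divides by an estimated transcript length and the count column does not. The ratio of estimated count to FPKM varied by more than 1.5 times between libraries for 7 of the 30 genes. It varied 2.59 times for TWIST1, 2.30 times for CGN, 2.18 times for TJP3, 2.14 times for OCLN and 2.13 times for CTNNA1. For PKP2 the ratio was 9.12, 12.3 and 11.2 in shMETTL1 and 18.1, 15.01 and 11.7 in shscramble, and for CGN it was 19.3, 14.99 and 16.3 in shMETTL1 and 8.38, 16.1 and 13.4 in shscramble, so that the mean was lower in shMETTL1 for PKP2 and higher for CGN. It varied 1.12 times for DSP, 1.05 times for CDH1, 1.02 times for KRT18 and 1.01 times for NES, whose values therefore moved alike in both readouts.

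**Figure D4:**
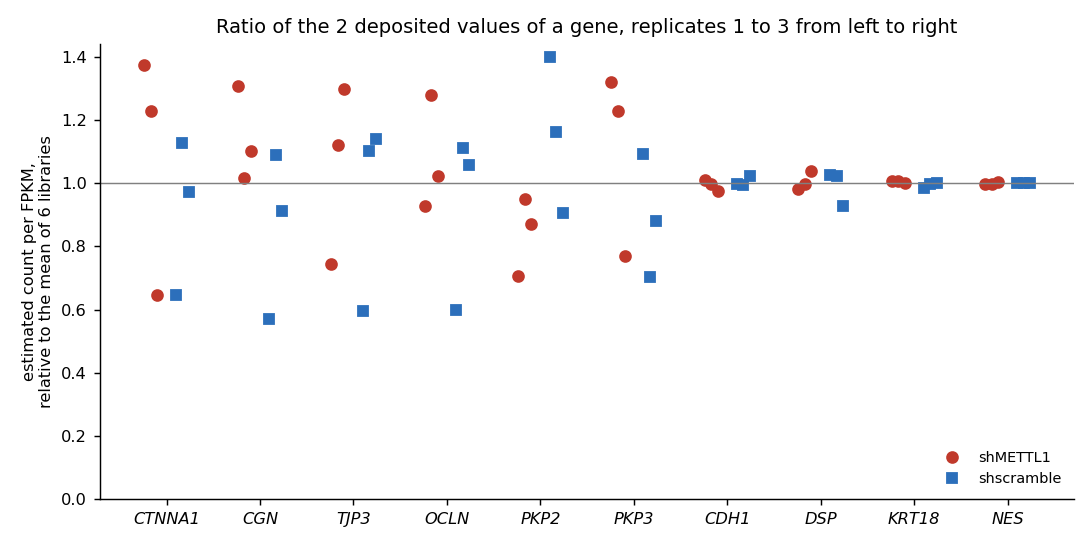
Estimated count per FPKM in each library, divided by its average over all 6, for 6 genes in which it varied and 4 in which it did not (shMETTL1 circles left, shscramble squares right, replicates 1 to 3 from left to right). CTNNA1, TJP3, OCLN and PKP3 have shMETTL1 libraries on both sides of 1, all 3 shMETTL1 libraries lie above 1 for CGN and below 1 for PKP2, and CDH1, DSP, KRT18 and NES stay close to 1.

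Of the epithelial regulators, 1 of 3 was called. ESRP1 (ENSG00000104413; GRCh38 chromosome 8, 94641074 to 94707466, plus strand) encodes an RNA-binding protein that sets the epithelial pattern of alternative splicing. It had 34.3, 35.9 and 29.2 FPKM in shMETTL1, against 24.9, 21.4 and 27.3 FPKM in shscramble, without overlap. ESRP1 rose by edgeR (log2 fold change 0.46, adjusted p = 0.0452, and 0.017 to 0.2 over the alternatives), and by limma its log2 fold change was 0.43 (standard error 0.17, adjusted p = 0.311). Its paralogue ESRP2 had 26.4, 32.6 and 32.8 FPKM in shMETTL1 and 23.8, 29.1 and 27.1 FPKM in shscramble, with overlapping groups and a log2 fold change of 0.19 by limma (adjusted p = 0.625). OVOL1, a zinc finger repressor of mesenchymal genes, had 5.92, 6.39 and 6.37 FPKM in shMETTL1 and 3.53, 6.99 and 5.51 FPKM in shscramble, also with overlap.

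The basal markers were low or not detected. KRT5 was listed at 0 in all 6 libraries. KRT14, the partner of KRT5, had 0, 1.599 and 0.611 FPKM in shMETTL1 and 3.70, 1.18 and 0.885 FPKM in shscramble, with overlap. KRT15 had 0.431, 0 and 0 FPKM in shMETTL1 and 1.78, 0.111 and 0.965 FPKM in shscramble, from estimated counts of at most 3.72 in any library. These levels are too low to carry a fold change. TRIM29, a gene of basal prostate cells, was the most abundant of the 4, with 6.32, 7.78 and 8.27 FPKM in shMETTL1 and 5.13, 4.37 and 4.80 FPKM in shscramble. Its FPKM groups did not overlap, and it passed neither test (log2 fold change 0.59 by limma with an adjusted p of 0.309, and 0.45 by edgeR with an adjusted p of 0.436).

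Of the 8 mesenchymal genes edgeR tested only 3, NES, SNAI1 and TWIST1, and it called NES lower and 0 higher. NES (ENSG00000132688; GRCh38 chromosome 1, 156668763 to 156677397, minus strand) encodes nestin, an intermediate filament protein of progenitor cells. It had 7.85, 8.38 and 9.74 FPKM in shMETTL1, against 14.5, 11.8 and 14.5 FPKM in shscramble. Every shMETTL1 library was below every shscramble library, at 8.65 ± 0.975 FPKM in shMETTL1 and 13.6 ± 1.58 FPKM in shscramble (SD, n = 3 each). NES fell by edgeR (log2 fold change -0.71, adjusted p = 0.0109, and 0.000345 to 0.0721 over the alternatives), and by limma its log2 fold change was -0.62 (standard error 0.20, adjusted p = 0.235).

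The EMT repressors and the markers they go with were scarce in both groups. SNAI1, the zinc finger repressor of CDH1, had 2.98, 3.95 and 2.85 FPKM in shMETTL1 and 6.82, 4.45 and 4.06 FPKM in shscramble. The SNAI1 groups did not overlap, but neither test called it (log2 fold change -0.56 by limma with an adjusted p of 0.418, and -0.71 by edgeR with an adjusted p of 0.245). TWIST1, a helix-loop-helix factor, had 3.84, 5.63 and 1.98 FPKM in shMETTL1 and 1.91, 3.56 and 1.32 FPKM in shscramble, with overlapping groups and a log2 fold change of 0.63 by limma and 0.17 by edgeR. VIM, the gene of vimentin, had 0.757, 0.694 and 0.668 FPKM in shMETTL1 and 1.23, 1.14 and 0.811 FPKM in shscramble, from estimated counts under 10 in every library. ZEB1 had 0, 0.209 and 0.147 FPKM in shMETTL1 and 0, 0.252 and 0 FPKM in shscramble. ZEB2 and SNAI2 stayed under 1 FPKM in all 6 libraries, and CDH2 was listed at 0. ZEB1, ZEB2, SNAI2, CDH2 and KRT5 were the 5 genes of the set that were under the filter on FPKM.

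Grouped by role, the median log2 fold change by limma was -0.33 for the desmosome (-0.26 by edgeR), 0.38 for the luminal keratins (0.35), 0.25 for the epithelial regulators (0.21), 0.13 for the tight junction (0.06) and 0.03 for the adherens junction (-0.04), beside 0.02 over all tested genes by limma. The tested mesenchymal genes had a median of -0.46 by limma over 4 genes and -0.71 by edgeR over 3 genes. The mean log2(FPKM + 0.5) of the desmosomal genes was lower in every shMETTL1 library than in any shscramble library, and that of the luminal keratins and of the epithelial regulators was higher. Without shscramble replicate 1 the median of the epithelial regulators was 0.12 by limma. These are small lists, and no test was made on them. To compare the 2 sides of the EMT axis, the mean log2(FPKM + 0.5) of the 26 epithelial genes minus that of the 4 tested mesenchymal genes was taken in each library. It was 3.30, 3.09 and 3.52 in shMETTL1 and 2.84, 3.01 and 3.19 in shscramble, so that the groups overlapped, with a mean difference of 0.29. That difference was 0.18 without shMETTL1 replicate 3 and 0.14 with no filter on low values, and it was 0.48 on log2 CPM, 0.49 by edgeR and 0.49 by DESeq2. The mesenchymal genes behind these values differ. The fit with no filter added ZEB1, ZEB2 and SNAI2, and log2 CPM, edgeR and DESeq2 covered only NES, SNAI1 and TWIST1. The summed FPKM of the mesenchymal genes was 16.2, 19.2 and 16.3 in shMETTL1 and 24.6, 22.9 and 20.8 in shscramble, with NES giving the largest part in every library.

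**Figure D5:**
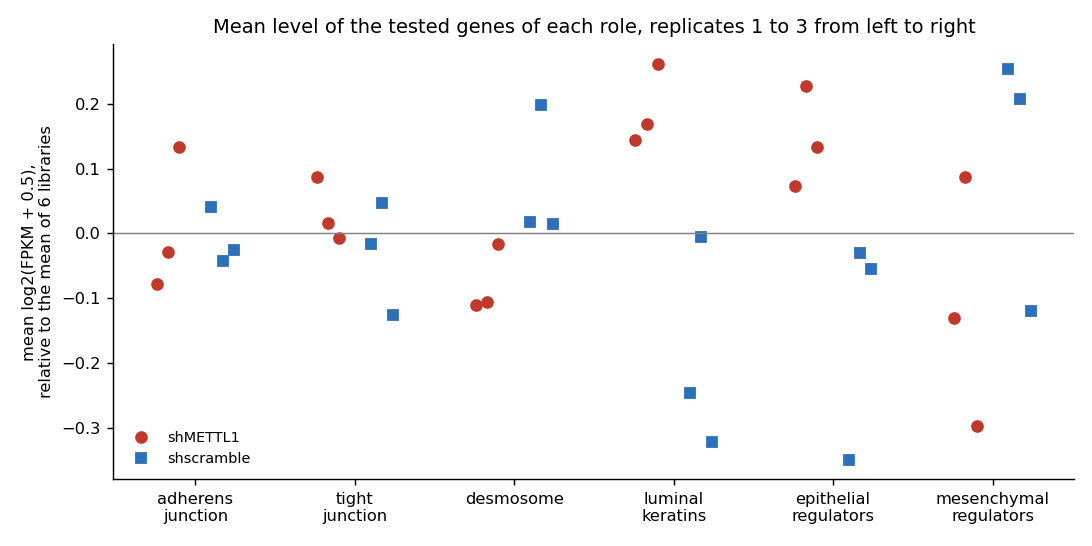
Mean log2(FPKM + 0.5) of the tested genes of each role, less its average over the 6 libraries (shMETTL1 circles left, shscramble squares right, replicates 1 to 3 from left to right). The desmosome is lower and the luminal keratins and epithelial regulators are higher in every shMETTL1 library, while the adherens junction, tight junction and mesenchymal genes overlap between the groups.

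A wider list of 82 genes covered other members of the same structures and mesenchymal genes. It held 46 genes tested by edgeR, of which 2 were higher and 2 lower, where 6.33% of all tested genes were called, so the list had a share of calls near that of all genes. NECTIN1, a cell adhesion molecule of adherens junctions, rose by edgeR on the estimated counts (log2 fold change 0.74, adjusted p = 0.0128). Its FPKM groups overlapped (16.8 ± 2.99 FPKM in shMETTL1 and 12.9 ± 3.06 FPKM in shscramble, SD, n = 3 each), and limma gave a log2 fold change of 0.38 (adjusted p = 0.49). LAD1, which encodes the basement membrane filament protein ladinin, rose as well (50.3 ± 6.75 FPKM in shMETTL1 and 33.7 ± 1.86 FPKM in shscramble; edgeR log2 fold change 0.48, adjusted p = 0.036). JAM3, a junctional adhesion molecule, fell (1.37 ± 0.534 FPKM in shMETTL1 and 3.52 ± 0.777 FPKM in shscramble; edgeR log2 fold change -1.65, adjusted p = 0.0102). FN1, which encodes fibronectin, a matrix protein often taken as a mesenchymal marker, was the 1 gene of the list that limma also called, and it fell (log2 fold change -1.39 by limma, adjusted p = 0.00784). ACTA2, which encodes smooth muscle actin and also counts as mesenchymal, had the opposite direction without passing either test, and it is named here after its values were seen. It had 5.08, 4.51 and 5.07 FPKM in shMETTL1, against 1.70, 2.30 and 1.097 FPKM in shscramble, without overlap (log2 fold change 1.33 by limma with an adjusted p of 0.125, and 1.23 by edgeR with an adjusted p of 0.127). The tested genes of that mesenchymal list had a median log2 fold change of -0.27 by limma over 5 genes and 0.11 by edgeR over 4 genes. The 15 other genes of the list that are usually counted as mesenchymal and had a mean below 0.5 FPKM were not tested by limma, and of the 3 further desmosomal genes that were tested none was called by limma or edgeR (0 of 3 at an unadjusted p under 0.05 by either).

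The edgeR calls changed when single libraries were left out. Over all genes they fell from 712 to 299, 295 and 328 without shMETTL1 replicates 1, 2 and 3. They fell to 443 and 270 without shscramble replicates 1 and 3, so lost calls were not particular to this set. DSP kept its call under 8 of 10 alternatives, NES under 7, ESRP1 under 6, and CLDN7 and DSG2 under 5 each. Without shMETTL1 replicate 1 edgeR called 0 of the set, without shMETTL1 replicate 2 it called DSP alone, and without shMETTL1 replicate 3 DSP and NES. Without shscramble replicate 1 it called DSP, ESRP1 and NES, and without shscramble replicate 3 only OCLN. Without shscramble replicate 2 it called 8 genes, adding KRT18, PKP3 and PKP4 to the 5, while the calls over all genes went up as well, to 1989 without that library against 712 with it. DSP, DSG2 and NES had negative and CLDN7 and ESRP1 positive log2 fold changes under all 26 fits run on either readout, whose log2 fold changes were -0.64 to -0.41 for DSP and -0.84 to -0.56 for NES.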

How the data were processed

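RNA was sequenced from LNCaP-AI cells in 3 shMETTL1 and 3 shscramble libraries. The submitters' notes in the labels list Cuffdiff, Cufflinks, HISAT2 2.0.4, cutadapt 1.9.3 and the build hg19, without their roles. The authors deposited for each library 1 FPKM value and 1 estimated count per gene. The deposited estimated counts are mostly fractional and may have been scaled to a common depth, so the depth of a library is unknown and no counting interval is given.

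FPKM was tested with limma 3.58.1 in R 4.3.3 (trend and robust prior) on log2(FPKM + 0.5), which understates the change of low genes, requiring 0.5 FPKM on average over the 6 libraries. The rounded counts went into edgeR 4.0.16 (quasi-likelihood test, TMM, filterByExpr). P-values were two-sided and adjusted over all tested genes by the Benjamini-Hochberg method. DESeq2 1.42.0, limma on log2 CPM (prior count 2), other pseudocounts, filters and scalings, a replicate block and leaving out each library were alternatives.

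The 38 genes and all lists were chosen with earlier results of these data known. Values by library are given for CDH1, EPCAM, KRT8, KRT18, CDH2, VIM and ZEB1, for genes called by limma or edgeR or with an unadjusted p under 0.05 in both, and for up to 3 more per role with the smallest limma p. Gene positions and exon overlaps are from GENCODE on GRCh38, not the hg19 of the processing notes, and promoters from RefSeq (GRCh38.p14). Some luminal marker genes are not reported here.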

Additional observations from a re-analysis of the deposited data

How the results depend on the processing

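The estimated counts do not give the depth of a library, counting strand is not stated, and 3 libraries a group limit every call. Over all genes limma on FPKM called 15, and 4 with no filter, 6 with the replicate block, 726 on log2 CPM, 712 by edgeR, 774 by DESeq2 and 3 to 189 when a library was left out (189 without shscramble replicate 2). Of the 38 genes limma called 0, and 5 on log2 CPM, 5 by edgeR and 6 by DESeq2. Over all genes edgeR called 712, and 1094 with no filter and 270 to 1989 when a library was left out (1989 without shscramble replicate 2), and of the 38 genes 0 to 8, and of the wider list 1 to 9. Same-numbered libraries did not deviate together (correlations of 0.0024, 0.053 and -0.024), so the numbers were not taken as pairs; the replicate block in edgeR called 1015 genes and 6 of the 38, DSC2 added. Median log2 fold changes moved for basal markers (-1.02) to -1.77 at a pseudocount of 0.1, -0.22 at a mean FPKM of at least 1, 0.47 on log2 CPM, 0.45 by edgeR, 0.45 by DESeq2 and -1.20 to 0.05 when a library was left out, and for mesenchymal genes (-0.46) to -0.24 with no filter, -0.71 by edgeR and -0.71 by DESeq2. These medians rest on different genes. Log2 CPM, edgeR and DESeq2 covered only TRIM29 of the basal markers and left out VIM, and the fit with no filter added ZEB1, ZEB2 and SNAI2. Leaving out a library gave -0.054 to 0.15 for the adherens and 0.064 to 0.22 for the tight junction. The sign turned on log2 CPM, by edgeR and by DESeq2 for CTNNA1 (0.10, 0.093 and 0.093), EPCAM (-0.16, -0.18 and -0.18), CGN (0.068, 0.054 and 0.054) and JUP (0.13, 0.13 and 0.13), and when a library was left out for CTNNA1 (-0.39 to 0.14), CLDN3 (-0.049 to 0.27), CLDN4 (-0.069 to 0.39), TJP1 (-0.00089 to 0.24), JUP (-0.19 to 0.014) and PKP3 (-0.10 to 0.67). The cause was not tested. Of the other values of single genes, 491 kept direction and side of the threshold and 19 passed it.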
